A study of Oryza sativa with 2 samples.

Results

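The 285 probes described here query the precursors of 16 conserved microRNA families with roles in plant development, on a rice expression array with 42418 non-control probes. They were chosen by name alone, as every probe whose name starts with osa (Oryza sativa) and one of the families miR156, miR159, miR160, miR162, miR164, miR166, miR167, miR168, miR169, miR171, miR172, miR319, miR390, miR393, miR394 or miR396. Each of 95 precursors has 3 probes, named Mature, 5'seq and 3'seq, and each probe was printed on 2 spots, which makes 570 spots per array. The rule uses no measured value, although the families were picked with earlier results of these data known. As a check of the names, 73 of the 190 5'seq and 3'seq probes carry the identifier of an annotated transcript, and in all 73 that transcript lies on the chromosome given in the probe name. Of the rest, 82 carry only the microRNA's own name and 35 another sequence accession, and all 95 Mature probes carry the microRNA's own name.

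Total RNA came from root hairs of rice of the cultivar labelled Don-gin, on 2 one-colour arrays that form a single group. Their titles read "07g39940 over" followed by a replicate number, from which the names sample 1 and sample 2 are taken. Seedlings had been on MSO medium for 3 days, and the hairs were rubbed off detached, frozen seminal roots, per the labels' protocols. The labels state neither what "over" stands for, nor whether the replicates are separate lines, plantings or preparations, so the spread between them may be technical. With 1 group and no control, no effect of the titled locus and no condition could be compared, and nothing below is a test. Os10g0578200 (CSLD1), a cellulose synthase-like gene needed for root hair elongation in rice, read 46042 on the first and 51117 on the second array; 1 gene without another tissue beside it does not check the label, and the purity of the hairs was not tested.

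MicroRNAs are cut from longer, capped and polyadenylated primary transcripts by the nuclease DICER-LIKE1 and loaded into ARGONAUTE proteins, which they guide to messenger RNAs of matching sequence. The families here are shared by most land plants, and most of their known targets are transcription factors or auxin signalling proteins that set the timing of growth phases and the pattern of organs. Labelling kits of the type named in the labels prime from poly(A) tails, which primary transcripts carry and mature microRNAs lack, so no signal below is read as a level of mature microRNA. The files used here give no probe sequence, and they do not state which stretch of a precursor the 3 probe types cover. Members of a family have identical or nearly identical mature sequences, so a Mature probe is not taken to separate its precursor from relatives.

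Signals below are background-subtracted Cy3 intensities in arbitrary units, given for sample 1 and then sample 2, and averaged over the spots of a probe as a geometric mean. A probe was counted as detected when the scanner software called every retained spot of it well above background on both arrays. Detected in 1 sample alone means that every retained spot was called on that array and not every one on the other. A spot may still have been called on the other array. That is a low bar, because the lowest spots so called read 7.33 and 7.14, and 6 of 24 random-sequence or artificial control probes also passed it. The highest of these 24 controls gave 44.0 and 49.9. A probe that was detected and exceeded these values on both arrays is called above the controls. Intensities depend on a probe's own sequence, so differences in level between probes are not read as results, and levels were ranked only to choose which probes or loci to name.

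Fewer of the microRNA probes than of the array's probes in general were detected, under a rule that was stricter for them. MicroRNA probes have 2 spots each, and every retained spot had to be called. The array's 42418 non-control probes share 43144 spots, so most other probes needed only 1 called spot per array. In all, 170 of 285 (59.6%) were detected, against 82.3% of the 41044 non-control probes with an unflagged spot, and 73 (25.6%) were above the controls, against 67.1%. Among the 225 probes for other rice microRNAs on the same arrays, 100 (44.4%) were detected and 33 (14.7%) were above the controls. Over the 285 probes the signal ran from 1.54 to 35119.9 with a median of 15.0 in sample 1, and from 1.51 to 35284 with a median of 14.5 in sample 2. The median probe therefore lay under the highest control on each array.

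The probe types differed in how often they were detected. Of 95 probes each, 68 of the 5'seq type (71.6%), 65 of the 3'seq type (68.4%) and 37 of the Mature type (38.9%) were detected. Above the controls were 31 of the 5'seq type (32.6%), 26 of the 3'seq type (27.4%) and 16 of the Mature type (16.8%). Of the 16 Mature probes above the controls, 12 belonged to 2 families, miR160 and miR166, with 6 each.

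By precursor, 79 of 95 had at least 1 detected probe, 54 had both the 5'seq and the 3'seq probe detected, and 26 had all 3. The 5'seq and 3'seq probes alone gave the same 79. At least 1 probe was above the controls for 48 precursors, and a 5'seq or 3'seq probe was for 42. Both the 5'seq and the 3'seq probe were above them for 15, namely miR156h, miR156k, miR159a, miR160f, miR164a, miR164b, miR164f, miR167b, miR167d, miR168a, miR171f, miR171g, miR171h, miR393 and miR394. In 4 of these, miR156k, miR160f, miR168a and miR394, the Mature probe was above the controls as well. In 6 precursors, miR160d and miR166a, c, d, f and n, the Mature probe was the only one above the controls. No probe was detected for 16 precursors: miR156b and l, miR167a, c, e and g, miR169d and f, miR171i, miR172b, c and d, miR390, miR393b, and miR396a and b.

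The families that act on the small RNA machinery itself come first. miR168 targets the messenger RNA of ARGONAUTE1, the protein that most microRNAs work with. All 3 probes of miR168a, on chromosome 2 at the transcript of Os02g0129700, were above the controls: the 3'seq probe gave 35119.9 and 35284, the 5'seq probe 14779 and 14578, and the Mature probe 181 and 192. The other member, miR168b, also on chromosome 2, had 3 detected probes and none above the controls, at 20.7 and 21.4 for 5'seq, 11.8 and 11.4 for 3'seq, and 20.1 and 25.8 for Mature. So in this family only 1 of the 2 precursors had signal beyond that of the control sequences in these arrays.

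miR162 targets the messenger RNA of DICER-LIKE1. Its 5'seq probes were above the controls for both precursors, with 105 and 119 for miR162a and 87.6 and 105 for miR162b. Both 3'seq probes were detected without exceeding the controls, and neither Mature probe was detected on both arrays. The Mature probe of miR162b was detected in sample 2 alone, at 10.7 and 13.5, a ratio of 1.24 after scaling. Its spots read 7.68 and 15.0 in sample 1, the second of them called, and 12.4 and 14.8 in sample 2.

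miR156 and miR172 act in succession in shoots, where miR156 holds SPL transcription factors down in the juvenile phase and miR172 acts later on AP2 factors. The miR156 probes were detected in 18 of 33 cases and above the controls in 7, which came from 4 of 11 precursors. For miR156d, at Os02g0180800, the 3'seq probe gave 549 and 518. At miR156h (Os06g0649600) the 3'seq probe gave 287 and 291 and the 5'seq probe 50.9 and 50.2. The 3'seq probe of miR156f gave 76.4 and 80.4. All 3 probes of miR156k exceeded the controls, at 47.7 and 55.2 for 3'seq, 88.6 and 98.8 for 5'seq, and 172 and 157 for Mature.

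Further miR156 probes had every spot called on 1 array only. The Mature probes of miR156a (12.2 and 7.87) and miR156g (9.64 and 6.45) were detected in sample 1 alone. The 3'seq probe of miR156b (10.7 and 12.6) and the Mature probe of miR156l (7.00 and 15.9) were detected in sample 2 alone. These signals were all under the highest control on each array. The precursors miR156b and miR156c share 1 annotated transcript, Os01g0187200, so their probes are not independent readings of separate genes.

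For miR172, 1 of 12 probes was detected and none was above the controls. That probe, the 5'seq probe of miR172a on chromosome 9, gave 9.99 and 11.7. No probe of miR172b, c or d was detected.

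Auxin responses are the point of action of 4 families. miR160 and miR167 target messenger RNAs of auxin response factors, miR390 starts the production of small RNAs from TAS3 transcripts that target further such factors, and miR393 targets the TIR1 and AFB auxin receptors. miR160 had 16 of 18 probes detected and 12 above the controls. All 6 of its precursors had a probe above them, and 5 had a 5'seq or 3'seq probe above them. All 6 Mature probes were among the 12. The one of miR160e, on chromosome 7, gave 376 and 406. Those of the other 5 precursors gave 80.7 and 78.5 for miR160a, 74.4 and 76.3 for miR160b, 65.8 and 73.1 for miR160c, 67.5 and 75.1 for miR160d, and 61.7 and 66.7 for miR160f.

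The 5'seq probes of miR160 were above the controls for 5 of 6 precursors. They gave 71.9 and 74.2 for miR160a, 85.6 and 90.7 for miR160b, 53.7 and 63.0 for miR160c, 52.9 and 59.1 for miR160e, and 49.1 and 51.0 for miR160f. Several of these are close to the highest control, and of the 3'seq probes only that of miR160f exceeded it, at 54.6 and 57.5. The family was thus often above the controls, but apart from the Mature probe of miR160e by less than 2-fold.

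miR167 had 8 of 30 probes detected and 6 above the controls, from 4 of 10 precursors. For miR167d, on chromosome 7, the 5'seq probe gave 387 and 393 and the 3'seq probe 141 and 147. For miR167b, on chromosome 3, the 3'seq probe gave 181 and 165 and the 5'seq probe 71.3 and 66.5. The 5'seq probes of miR167h (54.6 and 58.3) and miR167i (69.8 and 82.1) also exceeded the controls. None of the 10 Mature probes of this family was detected on both arrays, beside 6 of 6 in miR160. Mature sequences are identical or nearly so within a family, so these are not counts of separate members.

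Under the rule that every retained spot be called, 4 miR167 probes were detected on 1 array only. In sample 2 alone these were the 3'seq probe of miR167c (5.97 and 9.20), its 5'seq probe (9.27 and 10.04) and the Mature probe of miR167e (9.12 and 9.40). The Mature probe of miR167i (10.7 and 6.18) was detected in sample 1 alone. The 4 signals lay close to the lowest signal that the software called.

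The single miR390 precursor had none of its 3 probes detected on either array. For miR393 the 2 precursors differed. The one named miR393, on chromosome 1, gave 74.1 and 78.8 with its 5'seq probe and 73.1 and 86.6 with its 3'seq probe, both above the controls, while miR393b on chromosome 4 had no detected probe and signals between 1.54 and 2.58. The Mature probes of both precursors were not detected.

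The families known for meristem and organ patterning include miR164, which targets NAC factors that set organ boundaries and lateral root formation in Arabidopsis. It had 16 of 18 probes detected and 7 above the controls, from 4 of 6 precursors. For miR164a, on chromosome 7, the 3'seq probe gave 728 and 616 and the 5'seq probe 303 and 241. For miR164b, at Os05g0339300, the 3'seq probe gave 619.9 and 653 and the 5'seq probe 65.9 and 66.6.

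The other 2 miR164 precursors above the controls were miR164f and miR164d. The first gave 95.2 and 95.4 with its 5'seq probe and 81.0 and 80.3 with its 3'seq probe. The 3'seq probe of miR164d gave 68.3 and 76.1. Of the 6 Mature probes, 5 were detected and none was above the controls.

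miR166, which restricts HD-ZIP III factors and through them the polarity of leaves and vascular tissue, had a detected probe for all 13 precursors. Of its 39 probes 35 were detected, but only 10 exceeded the controls, from 9 precursors. In 4 of these precursors a 5'seq probe exceeded them, and in the other 5 only the Mature probe did. The 5'seq probes above the controls were those of miR166m (137 and 119.6), miR166h (79.0 and 83.1), miR166e (71.5 and 77.9) and miR166b (48.4 and 57.6). All 13 Mature probes were detected and 6 exceeded the controls, with 61.9 and 66.3 for miR166a, 67.9 and 70.8 for miR166b, 63.4 and 64.4 for miR166c, 68.1 and 70.2 for miR166d, 55.7 and 57.8 for miR166f, and 64.3 and 67.8 for miR166n. No 3'seq probe of this family exceeded the controls, although 11 of 13 were detected.

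miR171 targets GRAS factors of the HAIRY MERISTEM type, which keep shoot meristems undifferentiated. It had 20 of 27 probes detected and 9 above the controls, from 5 of 9 precursors. For miR171f, at Os03g0733200, the 3'seq probe gave 2726 and 2702 and the 5'seq probe 2085 and 1997. Its Mature probe was detected below the controls, at 33.5 and 36.0. At miR171a, on chromosome 6, the Mature probe did exceed the controls, with 128 and 144, and so did the 3'seq probe, with 107 and 116, while the 5'seq probe did not.

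The other 3 miR171 precursors above the controls were miR171g, miR171h and miR171e. The first gave 82.5 and 81.7 with its 5'seq probe and 61.8 and 65.3 with its 3'seq probe. miR171h gave 81.0 and 105 with 5'seq and 58.2 and 64.6 with 3'seq. The 3'seq probe of miR171e gave 53.8 and 53.7. In sample 2 alone, the 5'seq probe of miR171d (10.6 and 12.5) and the Mature probe of miR171g (8.96 and 11.3) were detected.

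miR159 and miR319 have related sequences; miR159 targets GAMYB factors, which act in anthers and in seeds, and miR319 targets TCP factors of leaf growth. miR159 had 10 of 18 probes detected and 5 above the controls, from 4 of 6 precursors. For miR159a, at Os01g0507000, the 5'seq probe gave 2540.5 and 2434 and the 3'seq probe 2121 and 2029.5, while its Mature probe was not detected, at 4.55 and 2.70. The 5'seq and 3'seq probes of this precursor were thus above the controls while its Mature probe was under the lowest signal called on either array. The 3'seq probes of miR159b (489 and 480.4) and miR159e (74.8 and 82.7) and the 5'seq probe of miR159f (59.2 and 58.9) also exceeded the controls. The 5'seq probe of miR159e (8.22 and 11.0) was detected in sample 2 alone. miR319 had 3 of 6 probes detected, and the 3'seq probe of miR319b, at 85.2 and 81.1, was the only one above the controls.

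miR396 targets GRF factors, which promote cell proliferation in growing leaves and panicles. It had 3 of 12 probes detected and none above the controls, and no probe of miR396a or miR396b was detected. The 5'seq probe of miR396c gave 31.2 and 34.3, and its 3'seq probe (9.30 and 10.7) was detected in sample 2 alone. For miR396d the 5'seq probe gave 13.4 and 16.7 and the 3'seq probe 18.9 and 18.5.

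miR169 targets NF-YA factors, subunits of the CCAAT-binding complex, and is the largest family here with 16 precursors. Of its 48 probes 25 were detected and 6 exceeded the controls, each from a different precursor. These were the 5'seq probes of miR169e (447 and 478), miR169o (107 and 98.9) and miR169c (47.6 and 54.7) and the 3'seq probes of miR169n (344 and 421), miR169a (257 and 243) and miR169p (74.0 and 72.1). No precursor of this family had both its 5'seq and its 3'seq probe above the controls, and 2 of its 16 Mature probes were detected. The 3'seq probes of miR169c (6.23 and 10.6) and miR169d (9.72 and 10.01) were detected in sample 2 alone. In miR394, which targets an F-box protein that acts in shoot meristems and leaves of Arabidopsis, the single precursor on chromosome 2 had all 3 probes above the controls, at 432 and 334 for 3'seq, 79.4 and 79.1 for 5'seq, and 95.4 and 86.8 for Mature.

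The 2 samples were then compared probe by probe, as log2 of sample 2 over sample 1 after each array was scaled to its 75th percentile. Over the 170 detected microRNA probes the median difference was 0.03 with an SD of 0.28 between probes, beside a median of 0.03 and an SD of 0.43 over all 33794 probes detected on both arrays. A microRNA probe averages up to 2 spots per array, while most other probes have 1. The SDs and the shares of probes 2-fold apart, here and below, are therefore not measured alike. The scaled log2 signals of the 2 arrays correlated across these 170 probes with a Pearson r of 0.989 and a Spearman rho of 0.974, and across all 33794 with 0.992 for both. Probes share the arrays and their scaling and are not replicates, so these are descriptions of 2 arrays. Of the 170 probes 94 were higher in sample 2 and 76 in sample 1, and the sign of their median is not settled, since it turned to -0.17 with quantile normalization, where the median over all detected probes was -0.02.

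In 3 of 170 microRNA probes the samples were at least 2-fold apart, while 2.84% of all detected probes were. None of the 3 exceeded the controls on both arrays. The 5'seq probe of miR164e gave 64.9 and 14.9, a log2 difference of -2.15, and its 2 spots read 125 and 33.8 in sample 1 against 13.4 and 16.6 in sample 2. The 3'seq probe of miR160a gave 23.2 and 9.81, a difference of -1.27, with spots of 45.7 and 11.8 in sample 1 against 9.12 and 10.5 in sample 2. In the opposite direction, the 5'seq probe of miR169h gave 27.3 and 57.7, a difference of 1.06, with spots of 20.2 and 36.8 in sample 1 against 98.6 and 33.7 in sample 2. In each of the 3 probes the gap between the samples came mostly from 1 of the 2 spots. With normexp background correction none of the 170 probes was 2-fold apart, and the 3 named here came to -0.77, -0.21 and 0.36. That correction adds an offset of 50, which by construction narrows log2 differences between signals as dim as these, so it does not check them. By direction, 1 of 170 was higher in sample 2, beside 2.31% of all detected probes, and 2 were higher in sample 1, beside 0.539%.

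Among the 73 probes above the controls no difference reached 2-fold. Over the 27542 such probes on the array 1.22% did, so none among 73 lies near that share. The SD over the 73 was 0.13. The differences ran from -0.39 for the 3'seq probe of miR394, which was 1.31-fold higher in sample 1, to 0.35 for the 5'seq probe of miR171h, which was higher in sample 2. The 97 detected probes not above the controls had an SD of 0.35 and contained all 3 that were 2-fold apart. Over the array the SD was likewise smaller above the controls, at 0.29, than for the 6252 detected probes not above them, at 0.78, but 337 probes above the controls and 624 of the others were at least 2-fold apart. A further 12 microRNA probes were detected in sample 2 alone, beside 2.69% of the array's probes, and 3 in sample 1 alone, beside 0.85%. Most of these 15 had a spot called on the other array as well, and missed detection there because another spot was not called. For 14 of these 15 the samples were between 1.01-fold and 1.58-fold apart, and for the Mature probe of miR156l 2.13-fold. Each was taken against the higher of the dim signal and the lowest signal called on that array. Where the dim signal was the higher, the value is the plain ratio and no lower bound.

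Some precursor loci are also covered by probes designed to full-length complementary DNAs (cDNAs), which gives a second reading of the same annotated locus. The probes were matched by locus, so they need not query the same transcript. There were 21 such probes at 16 loci. A cDNA probe was above the controls at 6 loci, and at each of these a 5'seq or 3'seq probe was too. At miR159a the cDNA probes gave 18270.5 and 17031 in one case and 2717 and 2460.2 in the other, and at miR168a they gave 1417 and 1377, and 1164 and 1142. The remaining 4 gave 1104 and 933 at miR164b, 289 and 278 at miR156h, 60.2 and 72.5 at miR162a, and 56.9 and 58.7 at miR156d. So the loci of miR159a, miR168a, miR164b and miR156h were above the controls by at least 3 probes each.

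At 5 loci a microRNA probe was above the controls and no cDNA probe was. These were miR160a, miR160b, miR160e and miR160f, and miR167h. The cDNA probes gave 3.72 and 5.36 at miR160a, 1.49 and 3.34 at miR160f, and 2.95 and 2.43 and 1.84 and 1.76 at miR160b, where none was called above background on either array. At miR160e the cDNA probe was detected below the controls, at 34.7 and 33.7, and at miR167h 1 of 2 was, at 37.2 and 29.9. At all 4 miR160 loci with both kinds of probe a microRNA probe thus exceeded the controls while no cDNA probe did, and the reason was not tested. At the last 5 loci, those of miR156b and miR156c, miR319a, miR393b, miR396c and miR396d, neither kind exceeded the controls.

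For context, 74 loci of the small RNA machinery and of the families' known targets in rice were looked up. Of the 70 on the array 63 (90.0%) were detected, beside 81.3% of all 28237 loci. A locus counted as detected when any of its probes was, and the listed loci had from 1 to 6 probes. Loci with more probes pass more easily and the numbers of probes were not matched, so the 2 shares are not compared. The median log2 difference of the 63 was 0.13 under the 75th-percentile scaling, beside 0.03 over all loci. A probe above the controls was present for 53. No share of all loci above the controls is given here, so this count and those per list are not read as results. Of the 12 machinery loci 11 were detected, 7 of them above the controls. Among these, AGO1A (Os02g0672200), an ARGONAUTE1 of the kind that miR168 targets, gave 4168 and 4291. AGO7 (Os03g0449200), the partner of miR390 in Arabidopsis, was the one machinery locus not detected, and it has only 1 probe. No miR390 probe was detected either, but a link between these absences was not tested.

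The target lists held 58 loci on the array, of which 52 were detected. The locus named for each list is the one with the highest mean signal, a choice of names only. Among auxin response factors these were ARF22 (Os10g0479900), targeted by miR160, with 8073 and 7468, ARF25 (Os12g0613700), targeted by miR167, with 1262 and 1417, and ARF14 (Os05g0515400), on the list for the TAS3 pathway, with 154 and 186. For the auxin receptors of miR393 it was Os04g0395600, with 5308 and 5328. All 14 auxin loci on these 4 lists were detected.

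Of the targets outside auxin signalling, a NAC locus of miR164 (Os02g0579000) gave 52617 and 55506, and RSR1 (Os05g0121600), an AP2 factor targeted by miR172, gave 51560.5 and 57631. Also above the controls were an NF-YA locus of miR169 (Os03g0174900) with 3681 and 3388, GRF11 (Os07g0467500) of miR396 with 3154 and 3023, and the F-box locus of miR394 (Os01g0923900) with 9196 and 8978. The named loci for miR171 (Os02g0663100, with 1187 and 1372), for miR156 (Os04g0551500, with 1006 and 981), for miR166 (Os10g0480200, with 650.2 and 674) and for miR159 and miR319 (GAMYB, Os01g0812000, with 488 and 535) exceeded the controls on both arrays as well. Of the lists' loci, 1 was at least 2-fold apart between the samples, the TCP locus Os07g0152000 at 23.4 and 70.2, and in sample 1 it was under the highest control. No share over all loci is given beside this count, which is not read as a result. Detection of a target beside its microRNA's precursor says nothing of regulation, which these arrays do not measure.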

How the data were processed

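Per the file headers, the deposited scanner files hold processed Cy3 intensities that Agilent Feature Extraction 11.5.1.1 had corrected for background and for spatial trends on each array, without normalization between arrays; the submitters' processing notes name version 9.1. Probe design refers to IRGSP5, per the file headers. A table deposited by the authors holds log2 values and a present or absent call; the steps behind it are not given in the sources used here. Its columns followed log2 of the median spot signal (r of 0.9995 and 0.9999 across spots; column medians of 8.19 for both arrays). Its scale is therefore log2; its centring was not determined further, and direction does not arise with 1 colour. For 2 probe names the spelling differs between table and scanner files, with the same systematic names.

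From each array's 45151 spots, 1417 scanner controls and 590 named control spots were left out, and then 1436 spots flagged as outliers in either scan, 13 of them microRNA spots. No spot was saturated. log2 processed signals were scaled by the array's 75th percentile (2725 and 2772) and spots were averaged per probe. Negative control spots had median signals of 1.81 and 1.74. Both arrays are of 1 slide and 1 scan. All array probes were processed together. Scaling, averaging and the 2-fold call were tested on simulated data, with every spot taken as called and the same noise for all spots. That simulation did not test the detection call, the bar set by the control probes or the noise of dim spots. With 2 arrays of 1 group no model was fitted, and the number of arrays limits the precision.

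The microRNA families and the pathway lists were chosen with earlier results of these data known. The pathway lists were written from rice locus identifiers and symbols; symbols are printed for the 36 of 74 loci whose symbol occurred once in the reference table (ASM3414082v1), on the right chromosome and in order, which does not exclude a wrong pairing. Other loci appear by identifier. Named probes are, per family, the detected probe with the highest mean signal, every probe above the controls, every probe at least 2-fold apart and every probe detected on 1 array; per pathway list, the locus with the highest mean signal and any at least 2-fold apart above the controls. Named outside this rule, after their values were seen, were CSLD1, the TCP locus, AGO7, the probes of miR168b, miR393b and miR396d, and the Mature probes of miR159a and miR171f. Alternatives were normexp background correction with an offset of 50 (limma 3.58.1 in R 4.3.3, on the median spot and background signals), other scalings, the authors' deposited table and other filters. Other steps used Python 3.11.15, pandas 2.3.3 and numpy 2.4.6. Probe and microRNA sequences were not used here.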

Additional observations from a re-analysis of the deposited data

How the results depend on the processing

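Of the 285 microRNA probes, 170 were detected on both arrays. The count was 75 with the present calls of the authors' deposited table and 73 above the highest control probe, and the 79 precursors with a detected probe became 49 and 48; the second by construction requires more signal, and for the first the cause was not tested. Taking 1 array alone gave 173 to 182 probes and 79 to 84 precursors. Counting a probe with 1 called spot, chosen after seeing the data, gave 193 and 86. The detection call is the scanner software's own and was held fixed under normexp and the other scalings, so these could not change the counts. The 3 probes at least 2-fold apart became 0 with normexp, 0 in the authors' deposited table, 0 above the highest control probe, 7 without a filter on dim probes, and 2 with median scaling, quantile normalization or cyclic loess. The normexp offset of 50 narrows differences between dim signals by construction. Above the highest control probe the count is 0 because none of the 3 exceeded the controls. Dropping the filter can only add probes. In the authors' deposited table the 5'seq probe of miR164e was still over 2-fold apart, so it left that count through the present call. Median scaling moves every difference down by the same amount. Of the 3 probes it can therefore bring only the 5'seq probe of miR169h, higher in sample 2, under 2-fold. For the other probes in the authors' table, and for quantile normalization and cyclic loess, the cause was not tested. The median difference of 0.03 ran from -0.17 (quantile) to 0.04 (75th percentile over detected probes), with a value below 0 under 6 settings, namely normexp, median scaling, quantile, cyclic loess, the authors' deposited table and no filter.

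Across the alternatives for the 78 named detected probes, 540 values stayed within 0.28 of the reported difference, the SD over all detected microRNA probes. That tolerance is wide for the 73 above the controls, whose own SD of 0.13 was exceeded by 88 of 511 values, with a largest shift of 0.28. Small differences have no settled sign: 133 of 546 values, over 45 probes, took the opposite one, each for a probe with a reported difference of at most 0.21 in size. No probe at least 2-fold apart did. The other 6 values belong to the 3 probes at least 2-fold apart: with normexp and in the authors' deposited table, the log2 differences were -0.77 and -1.17 for miR164e 5'seq, -0.21 and -0.45 for miR160a 3'seq, and 0.36 and 0.45 for miR169h 5'seq. No paired analysis was possible because there is 1 group. A slide block was not run, with 1 slide; leaving out an array leaves no difference. Signals near the control probes limit the families with few probes above them.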

Other observations

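Each microRNA probe was printed on 2 spots, which gives a spread within an array. Over the 162 detected microRNA probes with 2 retained spots, the median gap between the spots was 0.20 in sample 1 and 0.16 in sample 2 on the log2 scale. The median size of the difference between the arrays was 0.11. That difference is between averages of 2 spots and the gap is between single spots, so the values are not measured alike. A gap of at least 2-fold occurred in 2 of these probes in sample 1 and in 4 in sample 2, and in none of the 162 on both arrays. Taken with its sign, the gap correlated between the arrays with a Pearson r of 0.36 and a Spearman rho of 0.54 across these probes, which share array positions and are not replicates.

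Among all 272 microRNA probes with 2 retained spots, detected or not, 3 had spots at least 4-fold apart on both arrays in signal, and all 3 were Mature probes. For miR396b the spots read 33.1 and 1.47 in sample 1 and 23.0 and 1.43 in sample 2. For miR393 they read 11.8 and 2.05, and 14.7 and 3.06. For miR171h they read 8.44 and 1.91, and 7.77 and 1.82. In each case the same spot was the higher one on both arrays. None of the 3 probes counts as detected, because on each array at least 1 of its spots was not called well above background; these probes were named after their values were seen.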
